A study of Mus musculus with 60 samples.

Results

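The 6 macrophage marker genes Cd74, C1qa, C1qb, Apoe, Lyz2 and Csf1r marked a small group of the dye-retaining tumor cells that had been sorted from mouse bone. The group was chosen by one of them. A DiD+ well was placed in it when it held at least 10 counts of Cd74, the invariant chain of class II antigen presentation. This rule selected 6 of the 32 DiD+ wells (wells 19, 21, 24, 30, 37 and 88, by their label numbers) out of 60 wells in the series, and the other 26 DiD+ wells formed the comparison. Cd74 counts were 595, 10749, 1192, 124, 12721 and 1502 in the 6 wells in that order, and 0 in all of the other 26, so that the well just inside the threshold held 124 counts and the wells just outside it held 0. Because Cd74 chose the wells, its values are given as a description. Among the 28 DiD- wells, well 84 met the same rule with 860 counts and the other 27 held 0.

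All wells came from PyMT-Bo1, a C57BL6 mammary tumor line carrying luciferase (Luc2) joined to EGFP, a nuclear mApple reporter and the surface marker Thy1.1, all from lentiviral vectors, together with the polyoma middle T oncogene (Pymt) that gives the line its name. Cells were stained with DiD, a membrane dye that is diluted by division, and injected into the left heart of wild-type C57BL6/J female mice of 8 to 10 weeks. After 11 days the femurs and tibias of 5 mice were pooled, cells were enriched on Thy1.1, and live CD45-negative mApple+ cells were sorted one to a well as DiD+ (dye retained) or DiD- (dye lost), so both groups described here carried the same line, host, treatment and time and were separated only by their RNA. No mouse is named for any well. With 1 pool the DiD+ wells count as 1 sample, so differences between wells are described by values and ranges and were not tested.

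Macrophages are the phagocytes that clear dying cells, pathogens and worn red cells from tissues. In bone marrow a resident population forms the center of erythroblastic islands, in which a central macrophage holds maturing erythroblasts with adhesion molecules such as Vcam1, supplies and recovers iron, and engulfs the expelled nuclei. The transcription factor Spic is required for the red pulp macrophages of spleen and marks heme-recycling macrophages of marrow. Monocytes that enter inflamed tissue carry instead Ccr2 and Ly6c2, and can make Il1b, Il6, Tnf and Nos2. Macrophages that handle lipid carry Apoe, Fabp4, Cd36 and Trem2.

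Levels are given as CPM, a gene's counts over the mouse-gene total of the well on a common scale. CPM is not corrected for transcript length, so levels are compared between wells for the same gene and not between genes. Where 6 values follow a gene they are in the order of wells 19, 21, 24, 30, 37 and 88. Elsewhere means in the other 26 DiD+ wells, and the DiD- well 84 is described apart. For each group, a gene's counts were summed over the wells and divided by the group's summed total, which gives the CPM of the group. The log2 ratio is that of the CPM of the 6 wells over the CPM of the other 26. To each, 1 CPM was added, which understates the ratio of genes with low levels. A gene was measured, and set against a 4-fold limit (a log2 ratio of 2 in either direction), when it reached 1 CPM in either group. Bracketed intervals are exact Poisson 95% intervals of summed counts, and cover counting error only. They treat reads as independent, although amplification copies are counted, and leave out the spread between wells. Where no count fell in a group, a floor of 3 counts over that group (0.103 CPM in the wells with macrophage RNA and 0.0257 CPM in the others) gives a lower bound of the ratio. This bound reflects sequencing depth only, and does not cover RNA of a cell that was not captured.

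The wells with macrophage RNA were sequenced as deeply as the others and held as many genes. They held 4313301 to 5588437 counts each, against 2.28e+06 to 7.79e+06 in the other DiD+ wells, with a median of 8186 genes detected against 8283 (7860.5 against 8079.5 after each well was thinned to 2200000 counts). Spike-in RNA took a median of 2.86% of counts against 1.86%, and mitochondrial RNA 1.35% against 1.33%. Per spike-in count, the 6 wells held a median of 33.9 mouse counts against 52.8, and the ranges overlapped (14.6 to 74.1 against 14.3 to 178). Transgene counts ran from 0 (well 30) to 1689 (well 88), against 63 to 1663 in the other DiD+ wells. Well 30 is thus the only DiD+ well without a transgene count, and values that turn without it are also given without it.

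**Figure D1:**
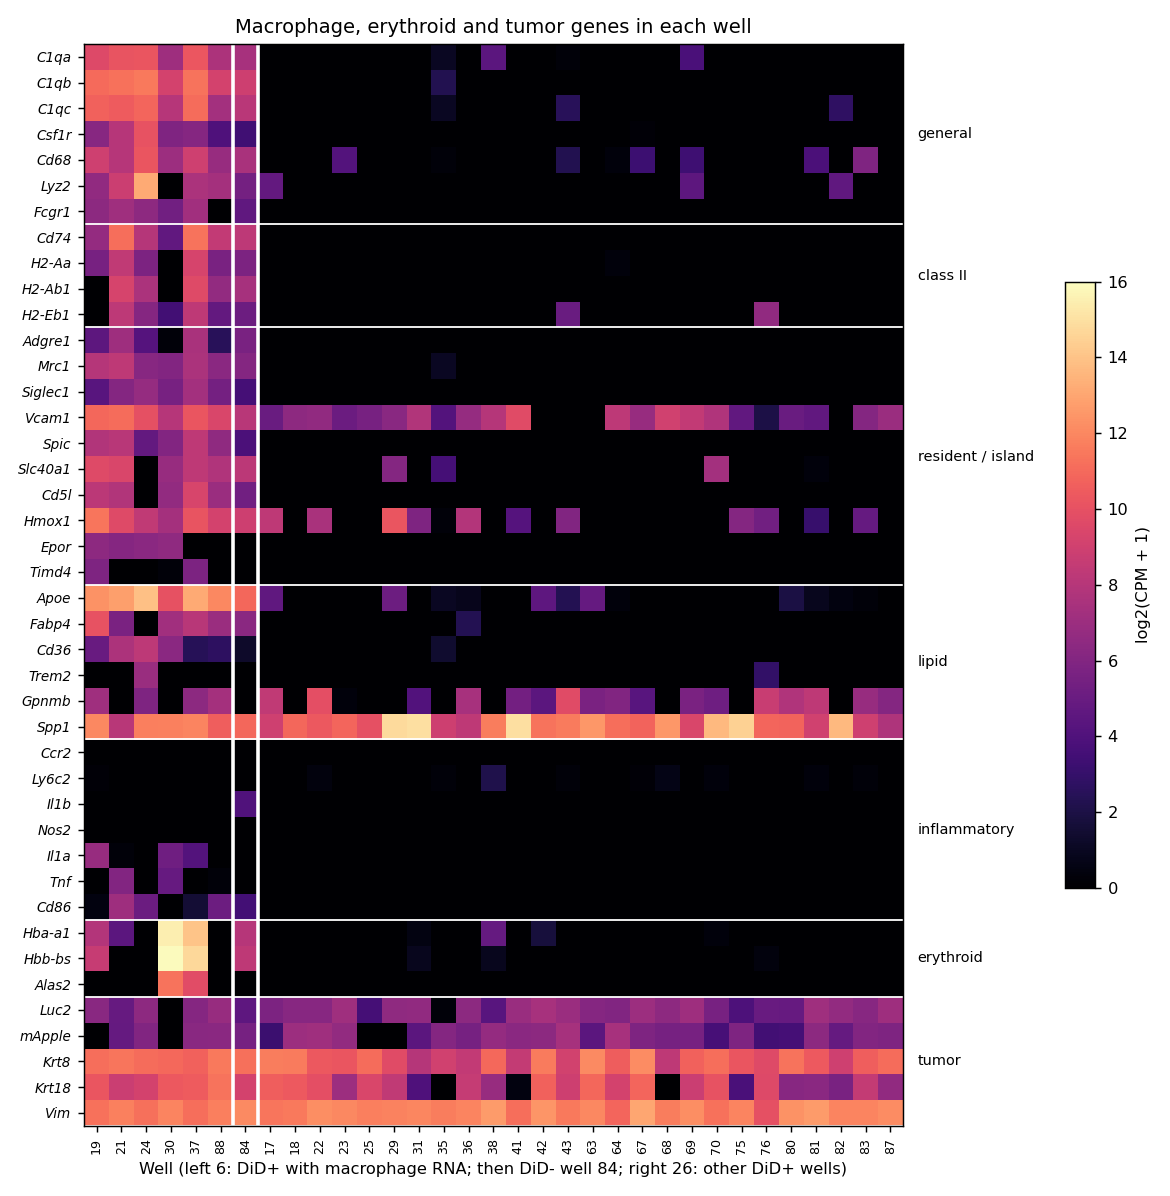
Level of 42 genes in every DiD+ well and in the DiD- well 84, as log2(CPM + 1), with genes grouped by role and wells along the axis. The general macrophage and resident genes are bright in the left 6 wells and in well 84 and mostly dark in the other 26 DiD+ wells, whereas Krt8 and Vim are bright in both groups.

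Of 12593 genes, 732 were at least 4-fold higher in the wells with macrophage RNA (5.81%) and 1151 at least 4-fold lower (9.14%), and the median log2 ratio was -0.19. Under spike-in scaling the same genes split into 590 higher and 1798 lower, and the median of all genes moved to -0.79. List medians under spike-in scaling are to be read against this value. In 39 genes (0.31%) the lowest of the 6 wells was above the highest of the other 26, and no gene lay below in the same way. The shares of 5.81%, 9.14% and 0.31% over all genes are the background for the list counts that follow. One of the 39 is Cd74, which chose the wells, and 12 are in the general macrophage list. Since the wells were chosen on RNA of the same kind, nothing is read from these counts. Among genes with 10 counts in at least 5 of the 6 wells, the 20 largest ratios were those of Hba-a2, C1qb, Apoe, Cd74, Trf, C1qc, Laptm5, Lyz2, C1qa, Fcer1g, Cd83, Fabp4, Csf1r, Tyrobp, Cfp, Cd5l, Selenop, H2-Aa, Rgs1 and Fcna. Of the 732 genes, 343 had no count in the other DiD+ wells, and 329 had at least 80% of their counts in 1 of the 6 wells, while 112 reached 10 counts in at least 5 of them.

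General macrophage genes were present in all 6 wells and close to absent from the other DiD+ wells. Of the 22 genes of the list, 21 were at least 4-fold higher and none lower, with a median log2 ratio of 6.57 (8.39 with genes absent from the other wells at their bound), and in 12 of them the wells did not overlap. The list took 0.837%, 0.987%, 2.38%, 0.162%, 0.952% and 0.205% of the counts of the 6 wells, against 0.00102% to 0.0266% in the other DiD+ wells. Well 24 held the most and well 30 the least. The 6 markers given with the rule took 0.182% (well 30) to 3.01% (well 24), against at most 0.00500% in any other DiD+ well, and all 6 reached 10 counts in 5 of the wells and 5 of them in well 30, which had no Lyz2. The markers other than Cd74 had been given with the rule, so their presence in these wells is a description and not independent evidence.

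The complement genes C1qa, C1qb and C1qc, which encode the chains of the first complement component and lie side by side on chromosome 4 (C1qb at chr4:136880129-136886187, GRCm38, minus strand), were found in all 6 wells. C1qb (ENSMUSG00000036905) stood at 2103, 2475, 2926, 561, 2599 and 564 CPM in the 6 wells, and reached 10 counts in 1 of the other 26, at 3.84 CPM. Summed, it was 1891 CPM (95% interval 1876 to 1907) against 0.162 CPM (0.0978 to 0.254), a log2 ratio of 10.67, and no well of either group overlapped the other. C1qc ran at 1693, 1402, 1841, 257, 2225 and 153 CPM (at most 5.90 in the other DiD+ wells, log2 ratio 9.64) and C1qa at 774, 1145, 1197, 135, 1233 and 202 CPM (at most 21.2, log2 ratio 8.39). In each of the 3, wells 30 and 88 were the lowest. Cfp, which encodes properdin, another complement protein, was 458, 429.7, 650.4, 50.2, 1056 and 176 CPM against at most 24.5, and Fcna, encoding the lectin ficolin A, was 1476, 1584, 945, 228, 680.1 and 32.2 CPM against at most 33.5, with well 88 within the range of the others.

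Csf1r, the receptor for the growth factor on which macrophages depend, was 71.9, 255, 1090.0, 58.5, 68.9 and 14.4 CPM, and a single count was found in the other 26 wells together. Its level in well 24 was the highest, and the log2 ratio of 8.005 was 6.55 without that well. Spi1, which encodes the myeloid transcription factor PU.1, was 60.3, 78.3, 254, 30.6, 103 and 18.1 CPM and had no count in the other DiD+ wells, which makes it at least 3542-fold higher. The signaling adaptors Fcer1g and Tyrobp were 78.5 to 689 and 19.7 to 725 CPM, and Sirpa, the receptor that reads the don't-eat-me signal CD47, was 58.5, 197, 175, 91.3, 55.1 and 25.5 CPM with no count in the other DiD+ wells. These genes divided the wells without overlap, apart from Tyrobp, whose lowest value of 19.7 CPM in well 88 was just under the 20.4 CPM of well 69. Lgmn, a lysosomal protease, was measured in both groups (114, 382, 2431, 55.5, 361 and 165 CPM against a median of 60.96), and Cd14, the coreceptor for endotoxin, was the list's only gene inside 4-fold (208, 252, 31, 73.1, 31.2 and 34.3 CPM against a median of 25.03, log2 ratio 1.82).

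The 250 bases upstream of the start are shown for C1qb and for Cd5l, a gene of a secreted macrophage protein, which were high in at least 5 of the wells and nearly absent elsewhere, since Spi1 and its relative Spic were found in all 6. They are from RefSeq, on GRCm38.p6, written from 5′ to 3′ along the gene. Capitals mark GAGGAA, the core letters bound by PU.1 and its relatives, or TTCCTC where it is on the other strand.

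C1qb, chr4:136886201-136886450, minus strand: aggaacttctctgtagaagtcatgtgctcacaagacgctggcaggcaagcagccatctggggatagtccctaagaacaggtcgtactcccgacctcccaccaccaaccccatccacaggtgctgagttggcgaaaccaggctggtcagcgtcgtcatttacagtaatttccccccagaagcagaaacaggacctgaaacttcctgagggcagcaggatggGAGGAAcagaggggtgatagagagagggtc

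Cd5l, chr3:87357631-87357880, plus strand: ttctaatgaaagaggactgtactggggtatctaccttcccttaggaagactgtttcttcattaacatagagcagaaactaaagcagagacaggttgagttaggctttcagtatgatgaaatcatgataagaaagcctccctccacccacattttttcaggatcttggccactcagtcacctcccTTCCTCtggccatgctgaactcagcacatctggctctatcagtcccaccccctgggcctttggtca

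Both windows lie upstream of the annotated genes. In C1qb GAGGAA stands 30 to 25 bases before the start, and in Cd5l its other strand stands 66 to 61 bases before the start. The motif was found in 23.3% of all 32851 RefSeq promoters of this length. Among promoters of the general macrophage list 9 of 17 (52.9%) held it, and among those of the resident list 6 of 17 (35.3%). Some genes have more than 1 promoter in the table. A letter match is a description and was not tested as a binding site.

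Class II antigen presentation genes, which display peptides to helper T cells, were found in the same wells but unevenly. Besides Cd74, which chose the wells, all 5 measured genes of the list were at least 4-fold higher (median log2 ratio 5.65, or 6.57 with Cd74), and the other 4 of the 10 (Ciita, H2-DMb2, H2-Oa and H2-Ob) had no count in the 6 wells. The alpha chain H2-Aa was 46.5, 335, 53.9, 0, 617 and 49.6 CPM and the beta chain H2-Ab1 was 0, 627, 195, 0, 812 and 100.4 CPM, with 1 count and 0 counts in the other 26 wells together. H2-Eb1 was 0, 309, 70.7, 10.1, 317 and 26.7 CPM and reached 10 counts in 2 other DiD+ wells, at up to 95.03 CPM. These chains were highest in wells 21 and 37, which also held the most Cd74. Wells 19 and 30 held no H2-Ab1 although their C1qb was at 2103 and 561 CPM. H2-DMa and H2-DMb1, which load the peptide, were 185, 115, 45.4, 0, 151 and 0 and 63.7, 72.6, 45.1, 25.7, 136 and 9.74 CPM. H2-DMb1 and H2-DMb2 are close copies, and reads could have been divided between them.

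Genes of resident macrophages were higher in the same wells. Of the 18 measured genes of the list, 16 were at least 4-fold higher and none lower, with a median log2 ratio of 4.52 (6.34 with bounds), and 4 divided the wells without overlap. Without wells 19, 30 and 37, which held the most erythroid RNA, the median was 3.92 and 14 of 16 were higher. The sum over the list was above that of all other DiD+ wells in 5 of the 6 wells. Mrc1, the mannose receptor, was 245, 330.2, 72.4, 63.4, 196 and 79.5 CPM against at most 1.01 (log2 ratio 7.33). Siglec1, the sialoadhesin of marrow and lymphoid macrophages, was 19.3, 65.95, 111, 47.6, 153 and 42.4 CPM, with no count in the other 26 wells, and was at least 2816-fold higher. Both genes were present in all 6 wells. Adgre1, which encodes F4/80, was 21.8, 134, 17.7, 0.202, 182 and 4.87 CPM and was near the floor in well 30. Cd163, the receptor for hemoglobin bound to haptoglobin, was lower and less even at 8.77, 93.7, 3.74, 79.1, 0 and 42.2 CPM, with 10 of the other wells at 10 counts or more (up to 32.9 CPM). Some genes of other resident populations were not seen. Lyve1, Marco, Vsig4 and Clec4f, of which Clec4f is known from liver Kupffer cells, had no count in the 6 wells, and Timd4, a receptor for dying cells, was found in 2 (56.9, 0, 0, 0.202, 54.1 and 0 CPM).

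Several heme and iron genes of erythroblastic island macrophages were higher in these wells. Spic was 225, 269.8, 27.05, 64.4, 330.2 and 91.6 CPM, with no count in the other 26 wells, and was at least 6619.7-fold higher. Slc40a1, encoding ferroportin, the iron exporter, was 793, 684, 0, 113, 324 and 224 CPM against at most 156 in 3 other wells (log2 ratio 5.35). Hmox1, the enzyme that opens heme, was 2751, 799, 338, 158, 1151 and 565 CPM, and the other DiD+ wells reached 1166 CPM although their median was 0. Cd5l, a secreted protein of marrow, liver and spleen macrophages, was 298, 228, 0, 101, 637 and 127 CPM with no count in the other DiD+ wells. Well 24 held neither Slc40a1 nor Cd5l and the lowest Spic, while its sum over the island list (2257 CPM) was above those of wells 30 and 88 (1419.7 and 1947 CPM). Vcam1, the adhesion molecule that binds erythroblasts, was 1919.9, 2202, 989.7, 264, 1213 and 679 CPM, and the other DiD+ wells held it too (median 72.1, highest 837 CPM), so that 2 of the 6 wells lay within their range. Epor, the erythropoietin receptor, was 87.1, 71.5, 80.5, 90.7, 0 and 0 CPM, at 10 counts in 4 wells, with no count in any other DiD+ well. Trf, encoding transferrin, which carries iron in plasma, was 2015, 2345, 1677, 85.4, 3472 and 136 CPM against at most 19.9 (log2 ratio 9.66), and wells 30 and 88 were again the lowest.

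Of the 16 genes in the erythroblastic island list, 11 were at least 4-fold higher and none lower (median log2 ratio 3.07), and 8 of the 16 are also in the resident list. Slc11a1, a metal transporter of phagosomes, was 0.358, 459, 153, 4.86, 194 and 46.8 CPM with 1 count in the other wells together, and Blvrb, which reduces biliverdin, was 363, 192, 128, 190.1, 132 and 45.4 CPM against a median of 42.6. Maea, a protein first described in islands, was not among them (0, 234, 275, 51.8, 76.6 and 63.1 CPM against a median of 157, log2 ratio -0.54). Dnase2a, which digests the DNA of engulfed nuclei, was 0, 0, 21.6, 40.1, 50.8 and 0.696 CPM and overlapped the range of the other wells (up to 49.9). Among the 15 iron-handling genes, 6 were at least 4-fold higher and none lower (median log2 ratio 1.53, or 0.52 under spike-in scaling), and 7 of the 15 are in the island list as well. The ferritin light chain Ftl1 was 36526, 17525, 8335, 5975, 19292 and 6228 CPM against a median of 4690.2 and a highest value of 13764, so 3 wells were above every other DiD+ well. Fth1, the heavy chain, was 26945, 10080.1, 5849.7, 5946, 10002 and 4957 CPM against a median of 8061 and overlapped (log2 ratio 0.17). The transferrin receptor Tfrc (0, 39.3, 0, 112, 0 and 89.5 CPM) and ceruloplasmin, Cp (756, 787, 374, 162, 746 and 849.9 CPM, median 536 elsewhere) were inside 4-fold.

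**Figure D2:**
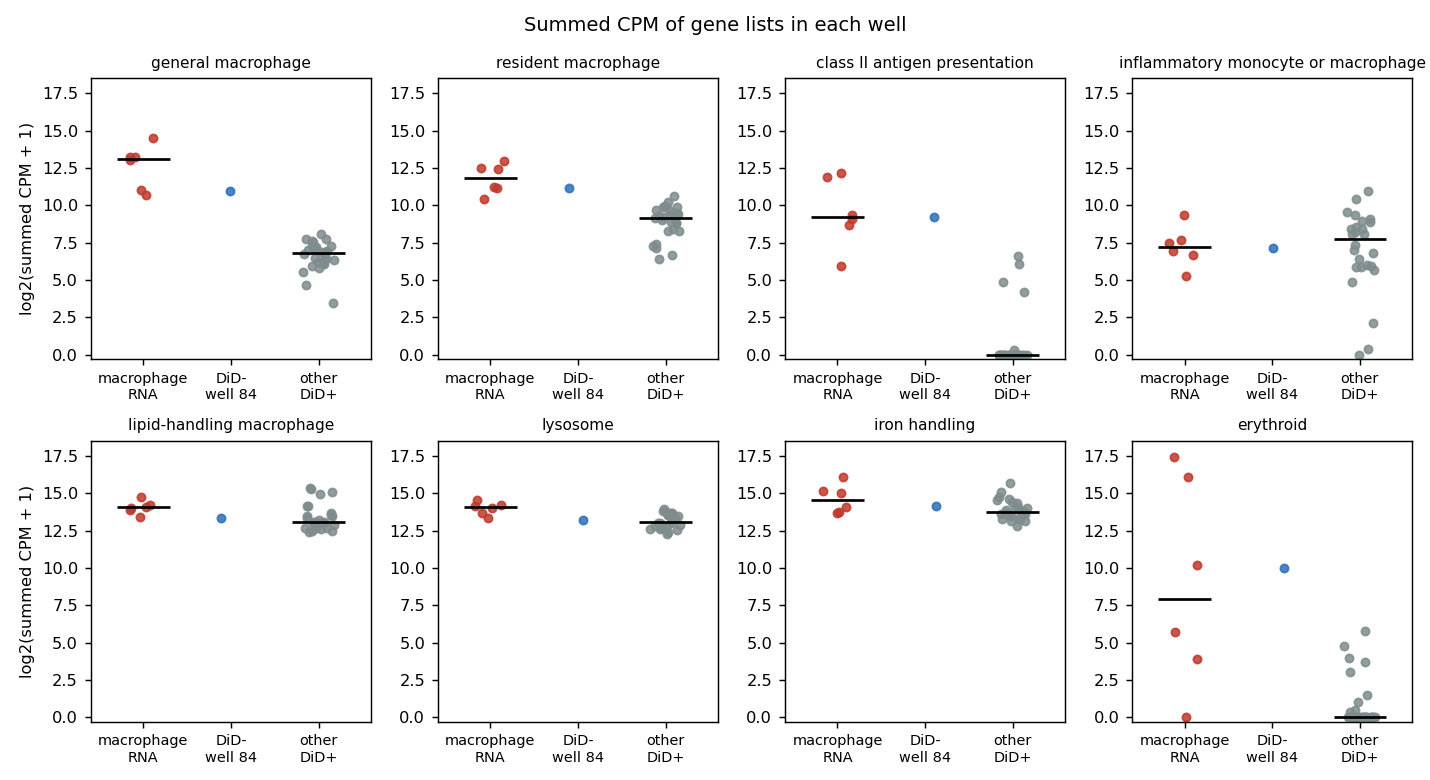
Summed CPM of 8 gene lists in each well, as log2(summed CPM + 1), for the 6 wells with macrophage RNA, the DiD- well 84 and the other 26 DiD+ wells, with bars at the medians. The groups do not overlap for the general macrophage list and overlap for the inflammatory, lipid-handling, lysosome and iron lists, and the erythroid list splits the 6 wells themselves.

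Genes of inflammatory monocytes were partly missing. Of the 28 genes of this list, 14 had no count in any of the 6 wells, among them Ccr2, Plac8, Il1b, Il6, Nos2 and Saa3, and Ly6c2 had 1 count. With 29140753 counts over the 6 wells, no count allows a level of up to 0.103 CPM by depth alone. RNA that was not captured is not covered by this limit. Of the 11 measured, 5 were at least 4-fold higher and 1 lower (5.81% and 9.14% over all genes). Their median log2 ratio was 1.86, or 0.36 under spike-in scaling. Of the 28 genes, 9 are also in the chemokine list described below. Il1a was 113, 0.213, 0, 38.5, 17.1 and 0 CPM and Tnf was 0, 65.7, 0, 28.5, 0 and 0.232 CPM, with no count of either in the other DiD+ wells. The costimulatory molecule Cd86 was 0.358, 137, 32.5, 0, 2.08 and 34.3 CPM, highest in well 21. The interferon-induced chemokine Cxcl10 was 0, 189, 0, 0, 23.5 and 0 CPM, and other DiD+ wells reached 1935 CPM. Ptgs2, the inducible cyclooxygenase, was lower than elsewhere (9.30, 9.39, 0, 0.607, 150.0 and 63.3 CPM against a median of 106, log2 ratio -2.20). Summed over the list, the 6 wells held 36.8 to 645 CPM and the others 0 to 2002 CPM, and 1 of the 6 was above the others' median. Myeloid calcium-binding genes S100a8 and S100a9 were at most 13.9 and 0.358 CPM.

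Lipid-handling genes were divided. Of the 23 measured, 10 were at least 4-fold higher and none lower, but the median log2 ratio was 0.98 (0.18 under spike-in scaling), and several of the listed genes were as high in the other DiD+ wells. Apoe, the apolipoprotein that carries cholesterol out of cells, was 5136, 7179.7, 15398, 1039.8, 8956 and 4275 CPM against at most 34.3 in the others. It was 6965 CPM (95% interval 6935 to 6996) against 4.51 CPM (4.13 to 4.91) in sum (log2 ratio 10.30). Fabp4, a fatty acid binding protein, was 1111, 52.3, 0, 147, 269 and 127 CPM, with the highest value in well 19 and none in well 24. Cd36, a scavenger receptor for oxidized lipid, was 29.9, 201, 306, 81.6, 4.58 and 5.56 CPM against at most 1.62. Nr1h3, which encodes the oxysterol receptor LXR alpha, was 44.02, 69.8, 25.8, 2.43, 0 and 0 CPM and had no count elsewhere, and its target Abcg1, a cholesterol exporter, was 6.98, 30.7, 0.208, 0, 15.4 and 3.48 CPM. Trem2, the receptor that marks lipid-associated macrophages, was present among the 6 wells in well 24 (0, 0, 119.8, 0, 0 and 0 CPM), and without that well its log2 ratio turned from 4.14 to -0.24. Gpnmb, Spp1, Lgals3, Cd9 and Cd63, which are also named for such macrophages, were not 4-fold different. Spp1 was 4106, 274, 3328, 3571, 3799 and 1541 CPM against a median of 1884 and a highest value of 31889.5, and Gpnmb was 140.3, 0, 56.8, 0, 85.5 and 165 CPM against a median of 38.8. Both genes were thus found in DiD+ wells without macrophage RNA.

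Genes for the uptake and digestion of other cells were partly higher. Of the 19 measured uptake genes, 8 were at least 4-fold higher and none lower (5.81% and 9.14% over all genes). Their median log2 ratio was 0.84, or -0.04 under spike-in scaling, where the median of all genes was -0.79. Cd300a, a receptor for phosphatidylserine, was 12.3, 4.48, 205, 84.2, 176 and 5.10 CPM with no count in the other DiD+ wells. Mertk, which recognizes dying cells through bridging proteins, was nearly all in wells 21 and 37 (0.716, 159, 0.208, 0, 27.9 and 1.39 CPM), and Axl, of the same family, was 1287, 644, 476, 467, 705 and 437 CPM against a median of 322. Stab1 and Stab2, scavenger receptors, were 0, 33.9, 266, 0, 13.7 and 15.997 and 39.01, 19.8, 0, 0, 0 and 9.27 CPM. The 24 lysosomal genes had a median log2 ratio of 0.78, or 0.29 under spike-in scaling. Of them, 3 were at least 4-fold higher and none lower (5.81% and 9.14% over all genes). These were the cathepsins Ctsc (361, 727, 476, 42.7, 265 and 99.5 CPM against at most 35.9) and Ctss (643, 616, 923, 48.2, 346 and 214 CPM), and Lgmn. Both Ctss and Lgmn are also in the general macrophage list. Cathepsin D, Ctsd, was 2585, 2896, 1852, 1437, 4189 and 1051 CPM against a median of 581 and a highest value of 1531, and cathepsin Z, Ctsz, was 717, 600.0, 1123, 365, 453 and 459 CPM against a median of 147 and a highest value of 386. The sum of the lysosomal list in 4 of the 6 wells was above that of every other DiD+ well.

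Fc and complement receptors were higher in all 6 wells by their sum, and genes of alternative activation in some. Of 10 measured receptors, 9 were at least 4-fold higher (median log2 ratio 4.79), and their sum divided the wells without overlap (119.8 to 1773 CPM against 0 to 91.8). Of the 13 genes of this list, 4 (Fcer1g, Fcgr1, Fcgr3 and Itgam) are also in the general list. Fcgr1, the high-affinity IgG receptor, was 85.5, 145, 89.05, 39.1, 151 and 0 CPM and Fcgr3 was 0.895, 159.9, 363, 0.202, 213 and 31.1 CPM. Itgax, the CD11c chain, had no count. Of 10 measured genes of alternative activation, 8 were at least 4-fold higher (median log2 ratio 2.93, or 7.30 with bounds), and their sum was above that of every other DiD+ well in 3 of the 6 wells. Mrc1 was the only one of them that divided the wells, and Retnla, Chil3 and Ccl22 had no count. Arg1 was present only in well 21 (91.99 CPM), Mgl2 only in well 24 (54.9 CPM) and Ccl24 only in well 88 (26.7 CPM).

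Chemokine and growth factor genes differed among the 6 wells. Of 24 measured, 14 were at least 4-fold higher and 1 lower (median log2 ratio 2.33). Ccl6, a macrophage chemokine, was 297, 121, 278, 15.99, 553 and 103 CPM, and the growth factor Igf1 was 100.4, 201, 6.66, 0.810, 128 and 75.6 CPM with 1 count in the other DiD+ wells. Ccl9 was 29.7, 101, 229, 0, 52.2 and 148 CPM. The RNA of 5 more was wholly or mostly in well 24, namely Ccl12 (896 CPM, none in the others), Ccl8 (462 CPM, with 65.1 in well 21), Pf4 (289 CPM), Cxcl13 (81.97 CPM) and Cxcl16 (123 CPM). Without well 24 the log2 ratio of Pf4 turned from 5.28 to -0.16. Ccl2, the chemokine that calls in monocytes, was 0, 0, 62.6, 13.2, 0 and 4.17 CPM against a median of 4.13 and a highest value of 2598 in the others. Its log2 ratio of -2.90 rested on well 68 of the other DiD+ wells, and was -0.82 without that well. Csf1, the ligand of Csf1r, was found in both groups (58.5, 271, 128, 105, 199 and 467 CPM against a median of 196). Among DiD+ wells the ligand was thus found in both groups and its receptor nearly only in the 6.

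Well 24 differed from the other 5 in several macrophage genes at once. It held 9276 CPM of Lyz2, the macrophage lysozyme, against 97.2, 461, 0, 190.4 and 159 CPM in wells 19, 21, 30, 37 and 88. It was the only well with Cx3cr1, the fractalkine receptor (125 CPM), and one of 2 with Itgam, the CD11b chain (0, 45.2, 81.1, 0, 0 and 0 CPM), and with C5ar1 (0, 82.4, 129.6, 0, 0 and 0 CPM). It held the most Csf1r, Lgmn, Selenop (3482 CPM), Apoe and Cd36, and no Slc40a1, Cd5l, Fabp4 or erythroid RNA. The log2 ratio of Lyz2 was 8.52 with this well and 5.28 without it. Wells 19, 21 and 37 shared high Trf, Spic and Slc40a1, and of these wells 21 and 37 held high class II RNA and well 19 did not. Wells 30 and 88 had the lowest sums of the general macrophage list. Cd83, an activation marker of antigen-presenting cells, did not follow this order, at 0, 179.9, 153, 306, 783 and 328 CPM, with no count in the other 26 wells.

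**Figure D3:**
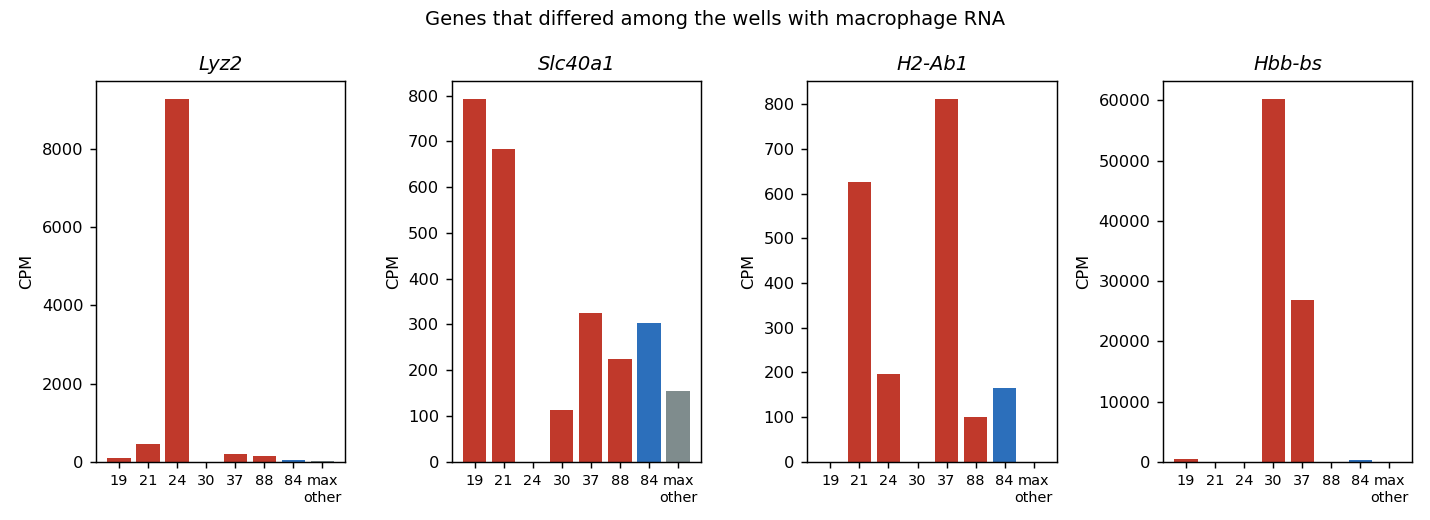
Level in CPM of 4 genes (Lyz2, Slc40a1, H2-Ab1 and Hbb-bs) in each of the 6 wells with macrophage RNA, in the DiD- well 84 and in the highest of the other 26 DiD+ wells, with a separate linear scale for each gene. Lyz2 is high in well 24, Slc40a1 is missing there, H2-Ab1 is highest in wells 21 and 37, and Hbb-bs is high in wells 30 and 37 and low in wells 19 and 84.

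Red cell genes were high in part of the same wells. Of 11 measured erythroid genes, 10 were at least 4-fold higher (median log2 ratio 7.57, or 10.91 with bounds), but the RNA was that of 3 wells. The list took 17.6% of the counts of well 30, 6.98% of well 37 and 0.118% of well 19, and 0.00512%, 0.00141% and 0 in wells 21, 88 and 24, against at most 0.00534% in any other DiD+ well. Beta-globin Hbb-bs was 402, 0, 0, 60203, 26774 and 0 CPM and alpha-globin Hba-a1 was 238, 21.3, 0, 45815, 16899 and 0 CPM. The pairs Hba-a1 and Hba-a2, and Hbb-bs and Hbb-bt, are near-identical copies, so how their reads were divided is uncertain. Alas2, the erythroid enzyme that begins heme synthesis, was 0, 0, 0, 2567, 896 and 0 CPM, and the membrane genes Slc4a1 (223 CPM) and Epb42 (113 CPM) were in well 30. Klf1, an erythroid transcription factor, was among the 6 wells in well 30 alone (59.7 CPM, log2 ratio 2.69, or -0.78 without well 30), while Gata1 had no count. Without wells 19, 30 and 37 the median was 1.88 over 3 measured genes. The 2 wells with the most globin RNA, 30 and 37, were not alike in macrophage RNA, with 0.162% and 0.952% of counts on the general list. Globin RNA was also found in a DiD- well without Cd74 (well 86, 4.65% of counts). The part of erythroid RNA in the other values of wells 19, 30 and 37 was not tested beyond leaving these wells out.

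Other blood and marrow cell types were represented by few genes. Ptprc, which encodes CD45, against which the cells had been sorted, was 1.97, 25.8, 0.208, 0.405, 0.416 and 0 CPM and reached 10 counts in 2 of the 6 wells. Other leukocyte genes were higher and more even. Of 17 measured, 14 were at least 4-fold higher (median log2 ratio 4.62, or 9.38 with bounds), among them Laptm5 (692, 693, 905, 29.96, 466.4 and 197 CPM), a lysosomal protein of blood cells, and Cd53 (308, 163, 211, 4.25, 132 and 43.4 CPM), both without a count in the other 26 wells. Dendritic cell genes Flt3, Clec9a, Ccr7, Batf3 and Siglech had no count, and of 5 measured genes on that list 2 were 4-fold higher (median log2 ratio 0.42, turning to -1.02 under spike-in scaling and to -0.77 without wells 19, 30 and 37), namely Cd83 and Irf8 (147, 66.2, 150.4, 0, 252 and 78.8 CPM). Of 12 neutrophil genes, 10 had no count in the 6 wells and 1 was measured, S100a8 (log2 ratio 2.24). Cd79b was 23.4, 56.3, 37.4, 0, 66.2 and 59.6 CPM and Ighm was at 129 CPM in well 24 only, while the other 6 genes of the B cell list (Ms4a1 and Cd79a among them) had no count in the 6 wells. Of the T and NK cell list only Cd4 was measured (0, 0, 59.3, 12.3, 0 and 0.696 CPM) and the other 8 genes had no count there.

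Osteoclasts are of the same lineage as macrophages and are the bone-resorbing cells of this tissue. Acp5, an enzyme they share with macrophages, was 0, 169.9, 57.2, 29.6, 23.9 and 71.4 CPM with no count in the other 26 wells, but Calcr, Dcstamp, Atp6v0d2, Oscar, Itgb3 and the protease Ctsk had no count in the 6 wells, and 1 of 4 measured genes of the list was 4-fold higher (median log2 ratio 0.22, or -1.36 without well 24). Of the megakaryocyte list 1 of 4 measured genes was higher (Pf4, in well 24) and 1 lower (Itga2b, with no count in the 6 wells and up to 45.5 CPM elsewhere; median log2 ratio 1.43). Of the endothelial list 1 of 4 was higher (Stab2; median log2 ratio 0.52, or -0.03 without well 30). The stromal list had 2 of 7 higher and 1 lower (median log2 ratio -0.99), the 2 being Vcam1 and Lpl, and the osteoblast list had 1 of 4 higher and 2 lower (median log2 ratio -1.35).

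The tumor origin of the wells was visible in nearly all of them. Luc2 was 75.7, 29.03, 86.6, 0, 70.1 and 115 CPM in the 6 wells against a median of 78.1 in the other 26 (log2 ratio -0.39), mApple was 0, 27.3, 61.8, 0, 78.2 and 78.6 CPM against a median of 56.5, and EGFP was 23.1, 8.54, 28.9, 0, 25.6 and 37.8 CPM against 25.1. Pymt, the viral oncogene, was at 160.2 CPM in well 88 and 0 in the other 5, and in the other DiD+ wells at most 18.02. Well 30 had no count of any transgene. Its keratin RNA was nonetheless as high as in the others. Krt8 was 2283, 2766, 2182, 2018, 1689 and 2951 CPM and Krt18, its partner in the filaments of simple epithelia, 1186, 430.3, 574, 1286, 1417 and 2598 CPM, inside the ranges of the other DiD+ wells (251 to 4504, median 1414) for Krt8, with well 88 above their highest value of 1949 for Krt18. Epcam, Krt5 and Krt7 had no count in either group, and 16 of the 22 epithelial genes were under 1 CPM in both. Of the 6 measured, 1 was at least 4-fold higher (Krt14, 35.9 CPM in well 88 only) and none lower, with a median log2 ratio of 0.86. Vim, which encodes the filament of mesenchymal cells, was 2469.7, 3552, 2429, 3875, 2239.9 and 3364 CPM against a median of 3803 (log2 ratio -0.44).

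**Figure D4:**
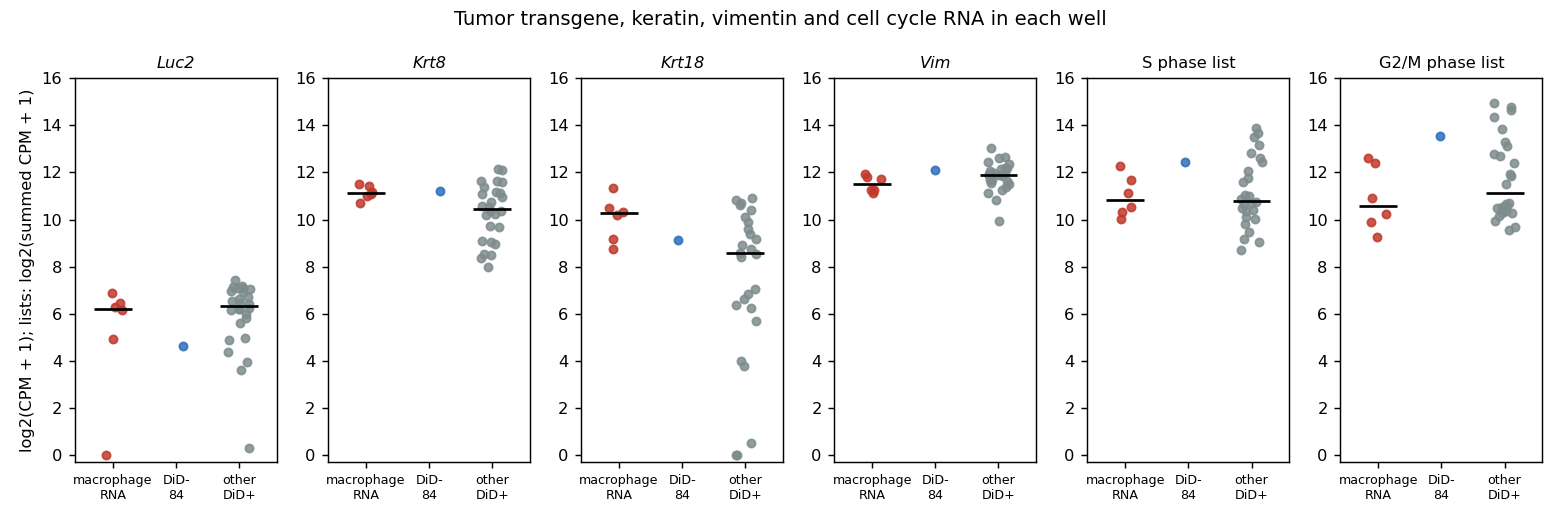
Levels of Luc2, Krt8, Krt18 and Vim, as log2(CPM + 1), and summed CPM of the S phase and G2/M lists on the same scale, in the 6 wells with macrophage RNA, in the DiD- well 84 and in the other 26 DiD+ wells, with bars at the medians. Every panel shows overlapping groups, with well 30 at 0 for Luc2 and the highest cell cycle sums in wells without macrophage RNA.

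Some matrix genes, which only part of the other wells held, were lower in the wells with macrophage RNA. Of 20 measured mesenchymal and matrix genes, 6 were at least 4-fold lower and none higher (median log2 ratio -0.68, against -0.19 over all genes, of which 9.14% were lower). Without wells 19, 30 and 37 the median was -1.81 with 9 lower (over all genes -0.20, with 1844 of 12593 lower). Under spike-in scaling it was -1.72 with 8 lower (over all genes -0.79, with 1798 of 12593 lower). All 6 wells were below the median of the other 26 in the summed list (5726 to 13569 CPM against a median of 13603). Ogn, a small matrix proteoglycan, and Prelp, another, had no count in the 6 wells and up to 1224 and 242 CPM in the others, of which 12 and 10 reached 10 counts. Col3a1, a fibrillar collagen, was present among the 6 in well 24 only (47.02 CPM, log2 ratio -4.81), Postn, encoding periostin, in well 37 only (199 CPM, log2 ratio -3.42), and Ccn5 in well 37 only (54.9 CPM). Dcn and Col1a1 had none, and reached 10 counts in 4 and 3 of the others. Fn1 (3709, 1195, 499.5, 1186, 4506 and 689.7 CPM, median 2937) and Sparc (713, 1442, 909, 1244, 937 and 990.0 CPM, median 1220.3), which nearly every tumor well holds, were inside 4-fold. With genes held to at least 10 counts in 20 of the other wells, no matrix gene of 9 was 4-fold lower.

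The genes that the study had named for dormancy in these same cells were chosen on these samples, and their direction is not independent evidence. Of the 12, which had a median log2 ratio of -0.85, 4 were at least 4-fold lower and none higher (over all genes 9.14% and 5.81%). They were Ogn, Postn, Pdgfrb (0, 0, 15.4, 0, 4.16 and 0 CPM, median 18.6) and Aldh1a1 (0, 0, 0, 0, 37.03 and 0 CPM, up to 297 elsewhere). Leaving out 1 of the 6 wells at a time, the median ran from -1.67 with 6 lower (without well 24) to -0.72 with 5 lower (without well 19). Under spike-in scaling it was -1.56 with 5 lower, where the median of all genes was -0.79. Mgp, the matrix Gla protein, was 349.7, 3575, 136, 629, 673 and 219 CPM against a median of 583, Gas6, a ligand of Axl and Mertk, was 0.716, 29.03, 135, 0, 0 and 0.232 CPM (up to 370.2 elsewhere), and Mme was among the 6 in well 19 only (105 CPM, median 9.90 elsewhere). Dhrs3, of retinoid metabolism, was detected in all 6 wells (65.5, 2.99, 73.9, 10.5, 35.4 and 5.10 CPM, log2 ratio 0.14).

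Division genes were the other group with lower ratios, although the wells overlapped. Of 53 genes of G2 and mitosis, 25 were at least 4-fold lower and none higher (median log2 ratio -1.70), and of 44 S phase genes 8 were lower and none higher (median log2 ratio -1.04), against 9.14% lower over all genes. Under spike-in scaling 30 and 11 genes were lower, with medians of -2.40 and -1.55. Over all genes that scaling gave a median of -0.79, with 1798 of 12593 lower. Cdk1, the mitotic kinase, was 0, 52.3, 30.2, 0, 30.2 and 112 CPM against a median of 102 and a highest value of 1466. The proliferation marker Mki67 was 0, 0, 36.8, 108, 0 and 12.5 CPM against a median of 1.19 and a highest value of 762, and Top2a, the topoisomerase of dividing cells, was 0, 0, 0, 7.08, 91.1 and 0.232 CPM against 36.4 and 957. The other wells covered a wide range, and their highest values weigh on the summed ratio. The G2/M sum was 617 to 6319 CPM (median 1567) against 753 to 31815 CPM (median 2316), with 9 of the 26 above every well with macrophage RNA and wells 24 and 88 the highest of the 6. The S phase sum had a median of 1865 CPM against 1789, opposite in sign to the median ratio of the list. Without wells 19, 30 and 37, the medians of the 2 lists were -1.26 and -0.33, with 18 and 4 genes lower. Mcm6, which helps to unwind DNA, was 75.5, 258, 528, 37.04, 0 and 474 CPM against a median of 205, and Pcna, the sliding clamp, was 41.5, 201, 85.5, 6.07, 25.6 and 434 CPM against 125.

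Among genes with 10 counts in at least 13 of the other wells, the 15 lowest ratios were those of Prc1, Pter, Incenp, Lmnb1, Hhat, Cog1, Fbxl4, Sod3, Ugt1a6a, Kif20b, Cenpl, Cactin, Inpp5b, Prr3 and Rab3gap2. Prc1, which bundles the microtubules of the dividing spindle, was 0, 0, 0, 0, 0.208 and 6.72 CPM against a median of 45.6 and a highest value of 2058 (log2 ratio -7.20). Incenp, Kif20b and Cenpl, also of mitosis, had 2, 5 and 0 counts in the 6 wells. Genes that are not of division stood on the same list. Pter, a phosphotriesterase-related gene, had no count in the 6 wells and reached 10 counts in 22 of the other 26 (median 47.7 CPM), which puts it at least 582-fold lower, and Cactin had none and reached 10 counts in 20 (median 39.4 CPM, at least 370.3-fold lower). Sod3, the extracellular superoxide dismutase, had none either (up to 318 CPM elsewhere). In each of the 15, at least 1 of the other 26 wells was also at 0. Of all 1151 genes at least 4-fold lower, 830 reached 10 counts in fewer than 13 of the other wells and 540 had no count in the 6 wells. When the comparison was held to the 4940 genes with 10 counts in at least 20 of the other wells, a limit chosen after seeing the data, 68 genes (1.38%) were lower and 7 (0.142%) higher. The 7 were Vcam1, Lgmn, Pld3, Ethe1, Fcgrt, Mkrn1 and Id2. Among such genes, 12 of the G2/M list had a median log2 ratio of -0.73 with 1 lower (Cdk1), and 13 of the S phase list a median of -0.80 with none lower.

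**Figure D5:**
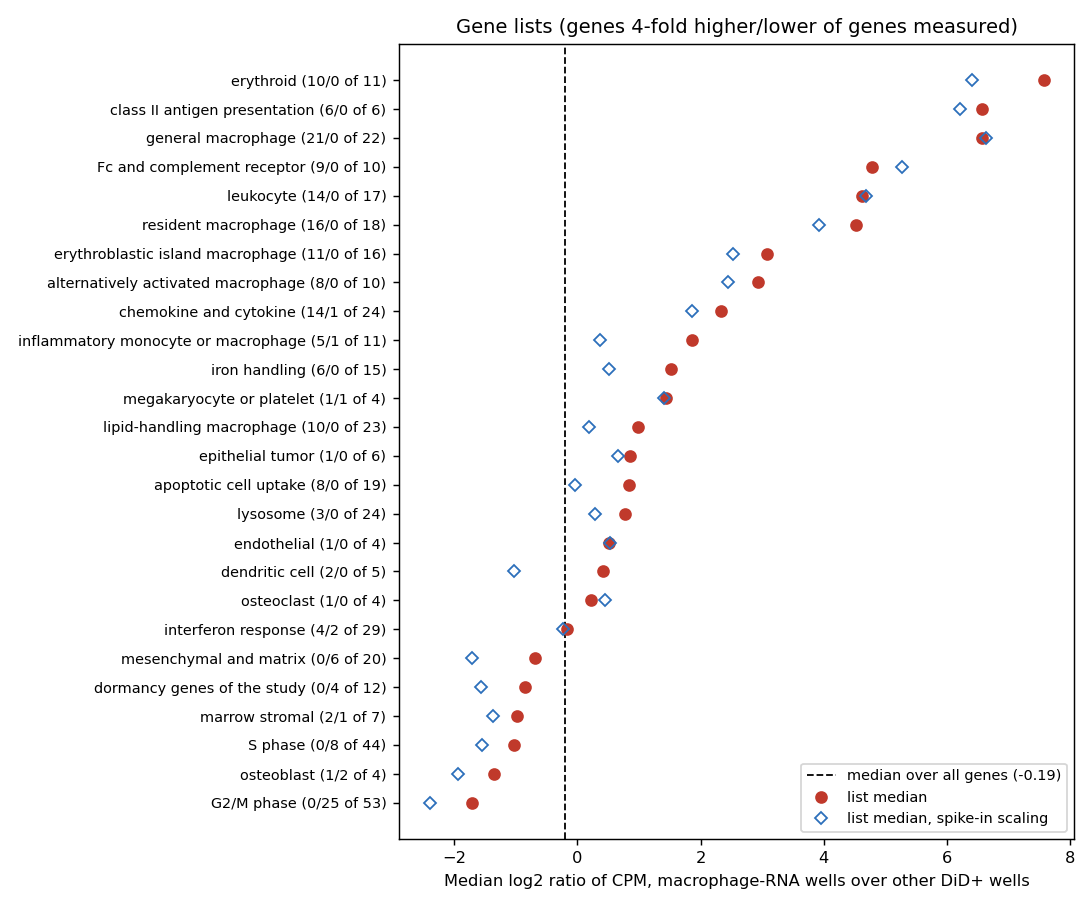
Median log2 ratio of each gene list with at least 4 measured genes, wells with macrophage RNA over the other DiD+ wells (filled circles), the same under spike-in scaling (open diamonds) and the median over all genes (dashed line), with the numbers of genes at least 4-fold higher and lower beside each name. Erythroid, class II, general macrophage, receptor, leukocyte and resident lists lie above 4 and the G2/M list has the lowest median. Under spike-in scaling, where the median over all genes is -0.79 (not drawn), the uptake and dendritic cell lists turn from above 0 to below 0.

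Well 84, the DiD- well that met the same rule, held macrophage RNA within the range of the 6 wells, at 1979 CPM of the general list against 1616 in well 30 and 2053 in well 88. It had 2751105 counts and 9919 genes. Apoe was 1945 CPM, Trf 640.1, Slc40a1 302, Hmox1 475, Mrc1 67.2 and H2-Ab1 166 CPM, each within the range of the 6 wells, and C1qb, Csf1r and Spic were 469, 9.81 and 13.4 CPM, below all of them. Spi1 and Cybb had no count. It differed from the 6 wells in its other genes. Vsig4, a complement receptor of resident macrophages, was at 85.1 CPM and found in no other well of the series, Il1b was at 15.3 CPM, and the neutrophil genes S100a8, S100a9 and Elane were at 69.1, 37.1 and 30.9 CPM. Its G2/M sum of 12016 CPM was above that of all 6 wells, and the erythroid list took 0.102% of its counts.

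Macrophage genes at low level were also found in some of the other 26 DiD+ wells, all of which lacked Cd74. In 2 of these wells 1 gene of the general list reached 10 counts, in 14 wells 2, in 7 wells 3 and in 2 wells 4, for the most part Cd14 and Lgmn. In well 69, 7 genes did so, with C1qa at 12.7 CPM, Tyrobp at 20.4, Lyz2 at 21.9, Cd68 at 9.14 and Aif1 at 7.94 CPM. The sum of the list there was 151 CPM. The highest sum among the 26 was 266 CPM and the lowest among the 6 was 1616 CPM (well 30), so the groups stayed apart on this list. From these counts, macrophage and tumor RNA held by a single cell and RNA of several cells or of free material in a well cannot be told apart.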

How the data were processed

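Single cells in 60 wells (32 DiD+, 28 DiD-) were analysed. The authors made cDNA with SMARTer v4 chemistry, built Nextera XT libraries, aligned reads with STAR to mouse GRCm38/mm10 supplemented with ERCC, mApple, eGFP, luciferase and PyMT sequences, and estimated counts per gene with RSEM (versions are not given in the sources used here). There are no molecular identifiers, so amplification copies are counted, and whether strand was used is not given in the sources used here. The deposited table holds these expected counts (96.6% of values were whole), which were rounded. The authors also deposited BASiCS-normalised values (a signal scaled with the spike-ins, 14013 entries), used only as an alternative.

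The 47729 mouse genes (47224 with a symbol) gave the library totals, and spike-ins and transgenes were left out of them. Counts of the 6 and the 26 wells were summed and scaled to CPM, and the log2 ratio was taken with 1 CPM added. Genes at 1 CPM or more on either side were set against a 4-fold limit. Gene lists (30) were taken whole, and members and lists were chosen with earlier results of these data known. Named genes are members of these lists, and by size the 20 highest ratios (at least 10 CPM and 10 counts in at least 5 of the 6 wells) and the 15 lowest (at least 10 CPM, and 10 counts in at least 13 of the other wells). The 7 higher genes of the broadly detected set were named after their values were seen. Poisson counts were simulated for the 2 sums over 47729 genes, without variation between wells. Of 200 changed genes of at least 10 CPM, 98.5% came back within 0.2 of the true log2 ratio. Of the unchanged genes at that level, 0% passed 4-fold. This checks the calculation only and gives no rate of false 4-fold calls among real wells. Alternatives were other scalings (mean of wells, TMM factors from edgeR 4.0.16, median-of-ratios factors from DESeq2 1.42.0, spike-ins, a total without host genes), pseudocounts, minimum levels, Cd74 limits and left-out wells. Python 3.11.15, numpy 2.4.6, pandas 2.3.3, scipy 1.17.1, matplotlib 3.10.9 and R 4.3.3 were used. A few genes are not reported here. No p-value is given, as the wells share 1 pool.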

Additional observations from a re-analysis of the deposited data

Results flagged for a closer look

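In 35 sums over the 6 wells with macrophage RNA, the gap between the highest or lowest well and its neighbor was compared with the whole range, with 0.625 as Dixon's 95% critical value for 6 samples. For independent, normally distributed values chance flags about 1 in 20 such groups. The sums here are linear CPM, some rest on 1 gene and some lists share genes, so this rate does not apply to them. Of the 35, 9 were flagged. All 9 were high values.

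In well 24, the general macrophage sum was 23775 CPM (next highest 9869), the T and NK cell sum was 59.3 CPM, which was Cd4 RNA, and the megakaryocyte sum was 299 CPM, which was nearly all Pf4. In well 21, the inflammatory sum was 645 CPM (next 206), the interferon sum was 7494 CPM (next 2778), and the dormancy gene sum was 3809 CPM (next 1014), of which Mgp made up 3575 CPM. In well 37, the dendritic cell sum was 1089 CPM (next 467), with Cd83 and Irf8 as its main genes. In well 19, the osteoblast sum was 121.5 CPM (next 41.04), which was mostly Phex. In well 88, the epithelial sum was 5631 CPM (next 3622), from Krt8, Krt18, Krt14 and Wfdc2. The part of single genes and of well quality in these values was not tested.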

How the results depend on the processing

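No paired analysis was possible because no well is paired with another by mouse or plate and no test was run. Every list median kept its sign under TMM factors, DESeq2 median-of-ratios factors, the mean over wells and Cd74 limits of 1 and 100 counts, which gave the same groups. With pseudocounts of 0.1 and 10 CPM the median log2 ratio became 9.04 and 3.69 for general macrophage, 7.89 and 2.01 for leukocyte, 6.57 and 2.42 for resident, 2.87 and 0.34 for inflammatory, 5.72 and 0.84 for alternatively activated, 3.32 and 0.77 for chemokine, 8.19 and 1.98 for B cell, 6.69 and 1.13 for T or NK cell, 2.27 and 0.34 for megakaryocyte and -2.38 and -0.32 for osteoblast genes, 7.77 (0.1 CPM) for Fc receptor, 1.83 (0.1 CPM) for endothelial and 3.74 (10 CPM) for class II genes. Spike-in scaling gave 0.36 for inflammatory, 0.18 for lipid-handling, -0.043 for uptake, 0.29 for lysosome and 0.52 for iron genes, with -0.79 over all genes. Without a minimum level the medians were 0.29 (inflammatory), 0.030 (neutrophil), 2.23 (B cell), -0.048 (endothelial) and -0.47 (osteoblast), and with 10 CPM they were 5.997 (dendritic cell), 2.28 (osteoclast), 5.28 (megakaryocyte) and 3.71 (endothelial). The mean over wells gave 3.15 for dendritic cell genes. Without the 3 erythroid wells the medians were 0.41 (uptake), 2.98 (chemokine) and 1.88 (erythroid), and without well 30, which lacks transgene counts, -0.025 for endothelial genes. Leaving out 1 well at a time, median log2 ratios ran from 0.46 to 1.00 (uptake; lowest without well 19), -0.52 to 3.17 (dendritic cell; highest without well 18, 3.15 without well 82), -0.025 to 1.29 (endothelial; 1.09 without well 22, 1.29 without well 36) and -1.54 to -0.21 (osteoblast; -0.21 without well 29). The number of genes at least 4-fold higher was 166 with 10 CPM added, 464 with a minimum of 10 CPM and 7 among broadly detected genes, a limit chosen after seeing the data, and the number lower was 1804 under spike-in scaling, 2016 and 109 with 0.1 and 10 CPM added, 1844 without the erythroid wells, 653 with a minimum of 10 CPM and 68 among broadly detected genes. The authors' BASiCS values gave 900 higher and 1871 lower of 12527 genes. Calls higher made up 38.9% of all calls, 24.7% under spike-in scaling and 60.4% with 10 CPM added. Log2 ratios reversed for Hbb-bs (-0.084), Hbb-bt (-0.87) and Klf1 (-0.78) without the erythroid wells, Klf1 also without well 30 (range 3.48 to -0.78), Ifi44 without well 68 (0.15, range -4.21 to 0.15), Ifit1 without well 21 (-1.11 to 4.18), Pf4 and Trem2 without well 24 (-0.16 to 5.61 and -0.24 to 4.43) and Phex under spike-in scaling (-0.11). The causes were not tested. The depth of 2.28e+06 to 7.79e+06 counts limits single genes: by depth alone, 1 well allows a level of up to 0.385 to 1.32 CPM where no count was found.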

Other observations

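Interferon genes, which cells switch on after sensing viral RNA or interferon, did not follow the macrophage RNA. Of 29 measured, 4 were at least 4-fold higher and 2 lower (5.81% and 9.14% over all genes). The median log2 ratio was -0.17, or 0.35 without wells 19, 30 and 37. The RNA of these genes was strongest in single wells of both groups. Ifit1 was 0, 1643, 0, 57.1, 0 and 0 CPM in wells 19, 21, 24, 30, 37 and 88, and Isg15 was 21.7, 631, 5.20, 72.7, 0 and 0 CPM, so that well 21 stood out. Without well 21 the log2 ratio of Ifit1 turned from 3.34 to -1.11. Oas2, a sensor of double-stranded RNA, was 210.0 CPM in the same well and had no count in the other DiD+ wells. Rsad2, an antiviral enzyme, was highest in well 30 (0.179, 25.6, 0, 260.3, 55.3 and 0.696 CPM). In the other DiD+ wells the list reached 20980 CPM in well 68, above the 7494 CPM of well 21, with Gbp2 up to 3494 CPM and Ifitm3 up to 8051 CPM.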
